A study of Homo sapiens with 6 samples.

Results

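The Frizzled and LRP receptors that cells use to bind WNT proteins were examined in HepG2 cells in which the motor protein gene KIF11 was knocked down. The 10 genes were chosen by name from the count table, as FZD1, FZD2, FZD4, FZD5, FZD6, FZD7, FZD8, FZD9, LRP5 and LRP6, and all 10 were found among its 20030 genes. HepG2 is an established human hepatoma line, and all libraries came from it. The sh-ctrl group (3 libraries) carried a control short hairpin RNA, and the sh-KIF11 group (3 libraries) carried an shRNA against KIF11. Hairpins were delivered with a lentiviral pLKO.1 vector, and infected cells were selected with puromycin. The labels name no separate hairpin sequences against KIF11, so the effect of the knockdown cannot be told apart from that of any other hairpin target. Poly(A) RNA was made into strand-specific libraries. No source used here says that the 3 libraries of a group came from separate cultures, so the p-values measure the spread between these libraries, which may be technical. The comparison of sh-KIF11 with sh-ctrl asked which WNT receptors changed in level, because the study turned to WNT signalling after the knockdown.

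Frizzled proteins are receptors that cross the cell membrane repeatedly and bind the lipid arm of a WNT protein through a cysteine-rich domain outside the cell. LRP5 and LRP6 are co-receptors that cross the membrane once, and WNT binding joins them to a Frizzled, after which their tails are phosphorylated and hold the scaffold AXIN and its partners at the membrane. This slows the breakdown of beta-catenin, the product of CTNNB1. HepG2 cells are known for a CTNNB1 deletion that stabilises beta-catenin, so that this branch is active in them downstream of the receptors.

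The Frizzled genes fall into groups of close relatives, and reads from relatives can be exchanged where their sequences match. FZD1, FZD2 and FZD7 form the closest group, with 82.4% identical coding bases between FZD1 and FZD2, 81.3% between FZD1 and FZD7 and 82.6% between FZD2 and FZD7. FZD5 and FZD8 shared 79.8%, FZD4 and FZD9 65.7%, and LRP5 and LRP6 66.4%. For the 23 Frizzled pairs from different groups the identity ranged from 57.2% to 73.2%. FZD4 and FZD9, grouped by known subfamily, lay within that range, and FZD9 shared more, 69.7%, with FZD8. The longest stretch without a mismatch between relatives of the same group was 81 bases, shared by FZD1 and FZD2. It is printed here from GENCODE release 29 transcripts (GRCh38), beside the same place in FZD7, because FZD2 and FZD7 are the low members of this closest group. Capitals mark the 2 bases of FZD7 that differ.
FZD1 (chr7:91266062-91266142, plus strand): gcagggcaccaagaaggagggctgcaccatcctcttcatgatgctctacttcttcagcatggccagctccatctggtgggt
FZD2 (chr17:44558645-44558725, plus strand): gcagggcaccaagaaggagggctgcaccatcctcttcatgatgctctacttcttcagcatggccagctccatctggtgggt
FZD7 (chr2:202035631-202035711, plus strand): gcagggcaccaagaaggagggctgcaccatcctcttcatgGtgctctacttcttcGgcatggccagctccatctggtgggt

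The co-receptors matched each other over at most 25 bases. That run is shown with its flanks, to 52 bases, because LRP5 and LRP6 behaved differently in these libraries, and capitals mark the 15 bases of LRP6 that differ from LRP5. The run starts in different repeats of the extracellular part, at coding base 1413 of LRP5 and coding base 450 of LRP6 for the letters shown.
LRP5 (chr11:68389881-68389932, plus strand): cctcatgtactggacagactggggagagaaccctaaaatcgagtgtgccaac
LRP6 (chr12:12203349-12203400, minus strand): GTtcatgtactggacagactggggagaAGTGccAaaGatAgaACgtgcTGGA

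The reads were 150 bases long. For each gene, windows of 150 bases were taken from the GENCODE transcript with the longest coding sequence. None from FZD1, FZD2, FZD5, FZD6, FZD7, FZD8, FZD9, LRP5 or LRP6 occurred in an annotated transcript of another gene. A full-length read without errors from such a transcript therefore fits only its own gene among annotated transcripts. Exonic bases outside the chosen transcripts were not searched. FZD4 was the exception, with 15.4% of its windows also present in PRSS23. FZD4 (chr11:86945679-86955391, minus strand, 2 exons) overlaps the coding gene PRSS23 on the opposite strand over 1399 exonic bases. Whether strand was used in counting is not given in the sources used here. PRSS23 had 5, 11 and 3 counts across sh-ctrl, against 63, 59 and 49 across sh-KIF11, so it was far below FZD4 and moved the other way.

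Depth was similar, between 18167773 and 19583282 counts per library. KIF11 itself was lower in sh-KIF11, with a log2 fold change of -0.75 (adjusted p = 4.22e-15, quasi-likelihood test of edgeR, Benjamini-Hochberg). Of 12369 genes with enough counts, 8548 (69.1%) passed an adjusted p of 0.05 in that test, 4254 higher (34.4%) and 4294 lower (34.7%). Scaling to library totals alone moved this split to 6621 higher and 2373 lower. Over the tested genes the fold changes had a log2 median of 0.00 with edgeR's TMM scaling and 0.24 with library totals, and each fold change below is relative to that middle. All 10 hepatocyte and HepG2 markers were detected, with a summed level between 27859 and 28993 CPM (counts scaled to depth, with TMM factors) in sh-ctrl and between 13524 and 14603 CPM in sh-KIF11. Of the defining markers of other cells, COL1A1, COL1A2, COL3A1, THY1, LUM, CDH5, KDR, PTPRC and CD3E had at most 7 counts in any library. VWF (21 to 75 counts) was called higher in sh-KIF11 and PDGFRB (25 to 65) and CD14 (4 to 25) lower, with log2 fold changes of 1.01, -1.16 and -1.78. CD14 had enough counts to be tested only through its sh-ctrl libraries, the group where it was high. PECAM1 (23 to 44) was not called. The summed fibroblast markers (1 of 6 at 0 in every library) ranged from 2.55 to 3.93 CPM in sh-ctrl and from 1.40 to 2.04 in sh-KIF11, and the 4 endothelial markers from 3.16 to 3.56 and from 4.69 to 4.98. The 4 leukocyte markers summed to between 78.0 and 89.1 CPM in sh-ctrl and between 41.8 and 46.2 in sh-KIF11, nearly all of it CD68, a lysosomal gene. The part of these marker differences in the receptor values was not tested, and fewer cells of a kind and less RNA per cell cannot be told apart in bulk samples.

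The receptors of HepG2 were dominated by LRP5, FZD5, FZD4 and LRP6. Levels of different genes are compared here in FPKM, a value that the authors scaled for gene length and sequencing depth and deposited beside the counts. In sh-ctrl the mean FPKM was 31.9 ± 1.06 for LRP5, 15.7 ± 0.108 for FZD5, 14.5 ± 0.117 for FZD4, 7.85 ± 0.208 for LRP6, 5.36 ± 0.626 for FZD6 and 1.67 ± 0.464 for FZD1 (SD, n = 3 each). The other 4 members stayed under 1 FPKM in every library. Neighbours in this order did not overlap between libraries, except FZD9 with FZD8 (0.410 ± 0.150 and 0.392 ± 0.166 FPKM, SD, n = 3). The order down to FZD1 was the same in sh-KIF11, whereas FZD8, FZD7, FZD9 and FZD2 each overlapped their neighbour there. The order rests on the gene lengths behind the FPKM values. The ratio of counts to FPKM implied 9.85 to 10.3 kb for LRP5, although the LRP5 transcript with the longest coding sequence has 5159 bases in GENCODE release 29, and 3.82 to 3.98 kb for FZD1, whose annotated transcript has 6963 bases.

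**Figure D1:**
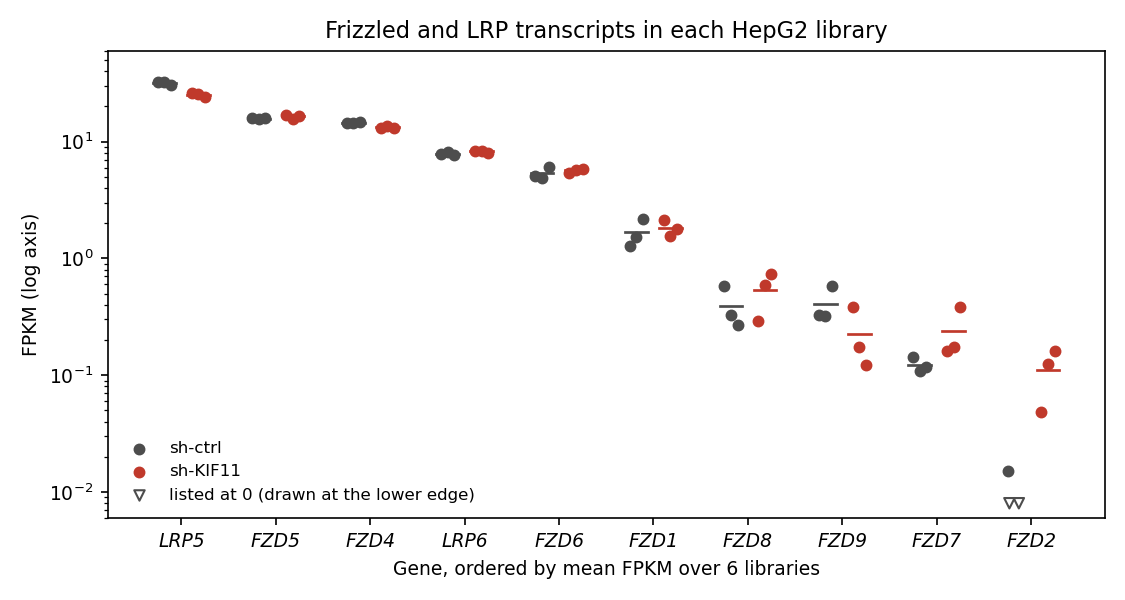
FPKM of each receptor (log axis) in the 3 sh-ctrl and 3 sh-KIF11 libraries, with the group mean as a line. LRP5, FZD5, FZD4, LRP6 and FZD6 keep the same order in both groups, and FZD2 is listed at 0 in 2 sh-ctrl libraries.

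Of the 10 receptors, 9 had enough counts to be tested, and 4 of them (LRP5, FZD4, FZD5 and FZD9) were called lower in sh-KIF11, against 34.7% of all tested genes. By edgeR 0 of the 9 were called higher, and 0 of the 9 had an unadjusted p under 0.05 in that direction, whereas DESeq2, which admitted FZD2, called that gene higher (log2 fold change 2.96, DESeq2 adjusted p = 0.0179). With library totals in edgeR the tally was 2 members called higher (FZD7 and LRP6) and 1 lower (LRP5). Of all 12369 tested genes, 6621 were called higher and 2373 lower with that scaling, around a log2 median of 0.24. FZD9 passed the count filter only through its sh-ctrl libraries and FZD7 only through its sh-KIF11 libraries, the groups where they were high, so that a call of either is no sign about the set. The 5 tested members that did not pass were LRP6, FZD6, FZD1, FZD7 and FZD8, and FZD2 was left out for low counts. In CPM the groups did not overlap for 6 tested members, namely LRP5, LRP6, FZD4, FZD5, FZD7 and FZD9, against 71.2% of all tested genes (35.4% higher and 35.8% lower). In FPKM they did not overlap for 4 of the 10, namely LRP5, FZD4, FZD7 and FZD2. The share was 72.1% among genes with FPKM of at least 0.5 in 3 libraries. LRP5 and FZD4 belong to those genes, whereas FZD7 and FZD2 stayed under 0.5 FPKM in every library and cannot be set against that share.

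LRP5, the receptor gene with the highest level, was clearly lower in sh-KIF11. LRP5 (chr11:68312609-68449275, plus strand, 23 exons, no overlapping gene) had 6374, 6478 and 5540 counts across sh-ctrl, against 4926, 4953 and 4505 across sh-KIF11. In CPM these were 357, 359 and 328 against 246, 239 and 228. Every sh-KIF11 library lay below every sh-ctrl library, also in FPKM, where the values were 32.5, 32.6 and 30.7 against 26.0, 25.6 and 24.1. The mean fell from 348 ± 17.3 to 238 ± 8.65 CPM (SD, n = 3 each), or to 0.683 of the sh-ctrl level. The log2 fold change of LRP5 was -0.55 (SE 0.0499, 95% interval -0.65 to -0.45, adjusted p = 6.48e-13 by the quasi-likelihood test of edgeR). It passed in all 16 alternative settings, from -0.59 to -0.32, the latter with library totals. LRP5L, a partial copy of LRP5 on another chromosome, had 231, 212 and 162 counts across sh-ctrl, against 195, 210 and 170 across sh-KIF11, which overlap as counts, and was called lower by the same test (log2 fold change -0.27, edgeR adjusted p = 0.0405).

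LRP6, the relative that shares most of the known functions of LRP5, did not pass the test. LRP6 (chr12:12116025-12267012, minus strand, 23 exons) had 1528, 1611 and 1473 counts across sh-ctrl, against 1681, 1733 and 1579 across sh-KIF11. Its CPM values were 85.7, 89.3 and 87.3 for sh-ctrl and 83.8, 83.7 and 80.1 for sh-KIF11, narrowly apart, whereas its FPKM values of 7.76, 8.08 and 7.70 overlapped with 8.36, 8.30 and 8.03. The log2 fold change of LRP6 was -0.083 (SE 0.0540, 95% interval -0.19 to 0.026, adjusted p = 0.170 by edgeR's quasi-likelihood test). Its sign depended on the scaling. Library totals gave LRP6 0.15 and passed (edgeR adjusted p = 0.0137, over a range of 0.0137 to 0.951 for the alternatives).

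FZD4 and FZD5 made up most of the Frizzled transcripts. FZD4, which also serves as the receptor of Norrin in blood vessel growth, had 1805, 1836 and 1771 counts across sh-ctrl, against 1670, 1805 and 1639 across sh-KIF11. In CPM it had 101, 102 and 105 against 83.2, 87.2 and 83.1, and in FPKM 14.5, 14.5 and 14.7 against 13.0, 13.7 and 13.1. The groups did not overlap on either of these scales. The mean was 103 ± 2.02 CPM in the control and 84.5 ± 2.33 CPM in the knockdown (SD, n = 3), and the log2 fold change was -0.28 (SE 0.0529, 95% interval -0.39 to -0.17, adjusted p = 1.20e-05 by edgeR's quasi-likelihood test). For FZD4 the call was lost only with library totals, among 16 settings, where the value was -0.049 (edgeR adjusted p = 0.411, over a range of 6.53e-07 to 0.411).

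FZD5 (chr2:207762586-207769563, minus strand, 2 exons), a receptor known for its role in the Paneth cells of the gut, was the most abundant Frizzled. It had 2436, 2469 and 2372 counts across sh-ctrl, against 2645, 2510 and 2499 across sh-KIF11. Its CPM values of 137, 137 and 141 in sh-ctrl stood just above 132, 121 and 127 in sh-KIF11, but its FPKM values of 15.8, 15.6 and 15.8 overlapped with 17.0, 15.7 and 16.6. The log2 fold change of FZD5 was -0.12 (SE 0.0509, 95% interval -0.23 to -0.021, adjusted p = 0.0289 by the edgeR quasi-likelihood test), a fall to 0.918 of the sh-ctrl level. This call passed in 7 of 16 settings. Library totals gave 0.11 and limma on log2(FPKM + 1) 0.056 for FZD5, both in the other direction, and the call was also lost without sh-ctrl library 2 (-0.13), sh-KIF11 library 2 (-0.095) or sh-KIF11 library 3 (-0.13).

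FZD6 and FZD1 were expressed at a middle level. FZD6, which acts in planar cell polarity, lies on chromosome 8 with 7 exons. It had 336, 314 and 382 counts across sh-ctrl, against 377, 390 and 384 across sh-KIF11, or 19.6 ± 2.70 and 19.0 ± 0.379 CPM (SD, n = 3). FZD1 (chr7:91264364-91271326, plus strand, 1 exon) had 97, 116 and 153 counts across sh-ctrl, against 159, 118 and 126 across sh-KIF11, or 6.98 ± 1.87 and 6.67 ± 1.14 CPM (SD, n = 3). The groups overlapped for both genes on both scales, and sh-ctrl library 3 was the highest sh-ctrl library for each. The 95% interval of the log2 fold change was -0.23 to 0.14 for FZD6 and -0.38 to 0.26 for FZD1 (adjusted p = 0.698 and 0.743 by edgeR's quasi-likelihood test). Changes within these intervals remain possible.

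**Figure D2:**
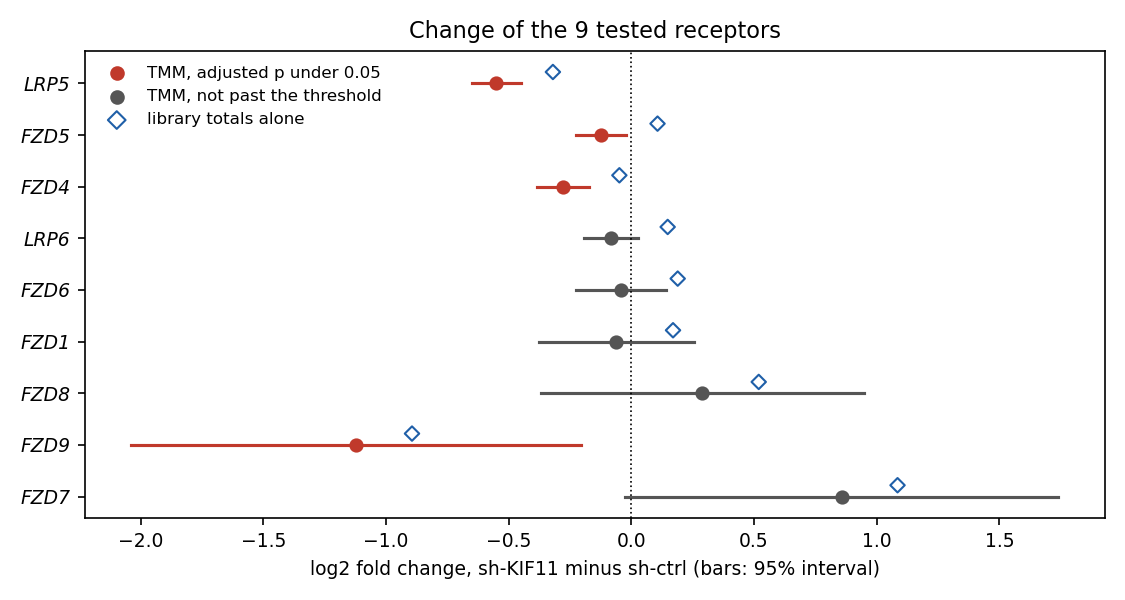
Log2 fold change of the 9 tested receptors, sh-KIF11 minus sh-ctrl, with 95% intervals from edgeR after TMM scaling (filled points) and the value with library totals alone (open diamonds). LRP5 lies clear of 0 under both scalings (-0.55 and -0.32), whereas FZD5, LRP6, FZD6 and FZD1 change side.

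The remaining 4 Frizzled genes had few counts, which sets how firmly anything can be said of them. FZD7, a receptor known from stem cells and liver cancer, had 9, 7 and 7 counts across sh-ctrl, against 13, 11 and 24 across sh-KIF11. FZD2, its close relative on chromosome 17, had 1 count in each sh-ctrl library and 5, 12 and 10 in sh-KIF11. For both genes every sh-KIF11 library was above every sh-ctrl library in counts, CPM and FPKM. The summed counts were 23 and 48 for FZD7, a depth-scaled ratio of 1.82 (exact 95% interval 1.09 to 3.13), and 3 and 27 for FZD2, a ratio of 7.85 (2.42 to 40.4). These intervals cover counting error only. The log2 fold change of FZD7 was 0.86 (SE 0.438, 95% interval -0.027 to 1.74, edgeR adjusted p = 0.0793), and it moved between 0.43 without sh-KIF11 library 3 and 1.08 without sh-KIF11 library 2, where it passed (adjusted p = 0.0446, edgeR, over a range of 0.0245 to 0.484). With library totals FZD7 had 1.08 as well and passed (edgeR adjusted p = 0.0245). FZD2 was below the count filter. With no filter it passed at a log2 fold change of 2.82 (edgeR adjusted p = 0.00320), within a range of 0.000987 to 0.0190 over the settings that admitted it. The printed stretch of FZD2 is also that of FZD1, whose level did not pass the test in either direction.

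FZD9, the low relative of FZD4, had 12, 12 and 20 counts across sh-ctrl, against 13, 6 and 4 across sh-KIF11, which overlap as counts and were narrowly apart as CPM (0.673, 0.665 and 1.19 against 0.648, 0.290 and 0.203). Its log2 fold change was -1.12 (SE 0.454, 95% interval -2.04 to -0.21, adjusted p = 0.0268 by the quasi-likelihood test of edgeR). The FZD9 call was lost in DESeq2 (-1.15, adjusted p = 0.103), with library totals (-0.89), and without sh-ctrl library 3 (-0.81), sh-KIF11 library 2 (-0.96) or sh-KIF11 library 3 (-0.83), and its adjusted p ranged from 0.00661 to 0.172 over the settings. FZD8, the low relative of FZD5, had 30, 18 and 12 counts across sh-ctrl, against 19, 30 and 35 across sh-KIF11, which overlap. Its log2 fold change was 0.29 (95% interval -0.37 to 0.95, adjusted p = 0.438 by edgeR's quasi-likelihood test). A change of FZD8 within that interval remains possible, and its value moved from 0.051 without sh-ctrl library 3 to 0.70 without sh-ctrl library 1.

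Ratios of 2 receptors within a library do not depend on how libraries are scaled to each other. The FPKM ratio of LRP5 to LRP6 was 4.19, 4.03 and 3.99 for sh-ctrl and 3.11, 3.08 and 3.003 for sh-KIF11. All 3 sh-KIF11 values lay below all 3 sh-ctrl values. The mean difference was -0.41 on the log2 scale, and plain counts gave -0.47 (two-sided exact permutation p = 0.1, the lowest value possible for 3 against 3 libraries, adjusted p = 0.4 over 4 pairs of relatives). The other 3 pairs overlapped between groups, with log2 differences of -0.70 for FZD1 to FZD7, -0.38 for FZD5 to FZD8 and 0.84 for FZD4 to FZD9 (exact permutation p = 0.2, 0.5 and 0.3, n = 3 each). Leaving out each library in turn moved these values to between -1.04 and -0.29, between -0.80 and -0.11, and between 0.49 and 1.32. The end nearest to 0 came without sh-KIF11 library 3 and the other end without sh-KIF11 library 1 in all 3 pairs. Pairs with FZD2 were not computed, because its FPKM was listed at 0 in 2 libraries.

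A further pair of ratios was chosen after the data had been seen. FZD4 to FZD5 was 0.915, 0.925 and 0.927 for sh-ctrl and 0.764, 0.876 and 0.793 for sh-KIF11, a log2 difference of -0.19. LRP5 to FZD5 was 2.06, 2.09 and 1.94 for sh-ctrl and 1.53, 1.63 and 1.46 for sh-KIF11, a difference of -0.40. Both were separate between groups (exact permutation p = 0.1 for each, n = 3).

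**Figure D3:**
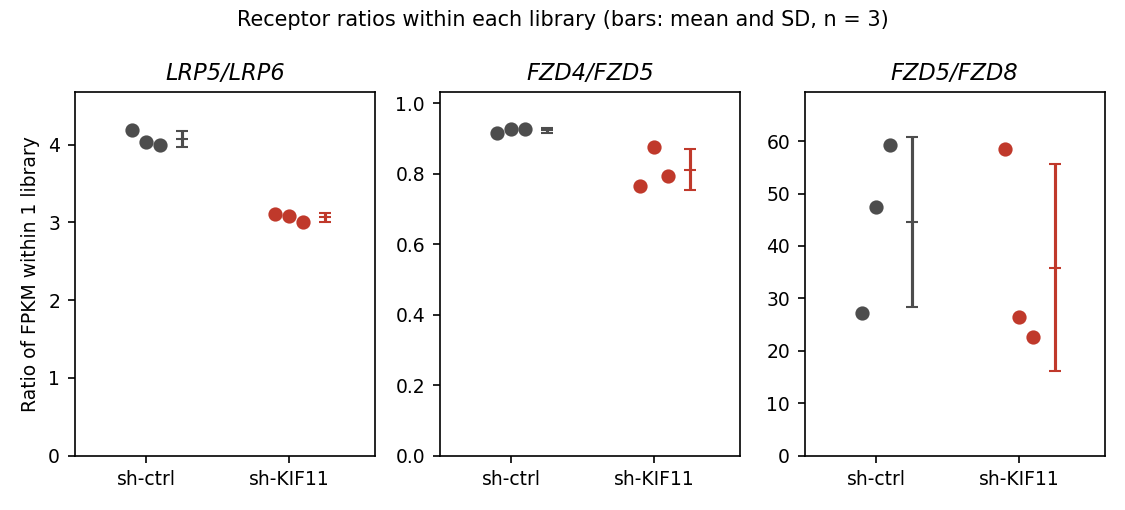
Ratio of FPKM within each library for LRP5/LRP6, FZD4/FZD5 and FZD5/FZD8, with bars for the mean and SD of 3 libraries. The first 2 ratios are lower in every sh-KIF11 library, and FZD5/FZD8, which rests on few FZD8 counts, overlaps.

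Whether the summed level of the Frizzled genes differed between the groups depended on the scale. The FPKM of the 8 Frizzled genes summed to 37.7, 37.3 and 39.7 for sh-ctrl and to 38.5, 37.8 and 38.7 for sh-KIF11, which overlap (38.2 ± 1.29 and 38.3 ± 0.464, SD, n = 3 each, exact permutation p = 0.9). In CPM, a sum that weights long transcripts and was added after the data had been seen, they had 265, 264 and 280 against 244, 236 and 239, lower in every sh-KIF11 library (270 ± 8.56 and 239.8 ± 4.23, SD, n = 3 each, exact permutation p = 0.1). LRP5 and LRP6 together had 40.3, 40.7 and 38.4 for sh-ctrl and 34.4, 33.9 and 32.1 for sh-KIF11 (39.8 ± 1.20 and 33.5 ± 1.17, SD, n = 3 each, exact permutation p = 0.1). Every sh-KIF11 library was lower in co-receptor FPKM, and also in CPM (436 ± 17.6 and 320.3 ± 10.7, SD, n = 3 each, exact permutation p = 0.1). FZD4 and FZD5 held 79.2% ± 2.14 of the Frizzled FPKM in control cells and 77.5% ± 0.640 in knockdown cells (SD, n = 3 each).

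Within the Frizzled total, the share of FZD4 was lower in all 3 sh-KIF11 libraries, at 34.7% ± 1.42 against 38.0% ± 0.966 (SD, n = 3 each), a difference of -3.32 points (exact permutation p = 0.1, adjusted p = 0.267 over the 8 genes). FZD5, at 41.2% ± 1.19 in control cells and 42.8% ± 1.37 in knockdown cells (SD, n = 3 each), overlapped. The shares of FZD7 and FZD2 were higher in every sh-KIF11 library but stayed small, at 0.621% against 0.321% for FZD7 and 0.292% against 0.0134% for FZD2. FZD6, FZD1, FZD8 and FZD9 overlapped between groups, at 14.0%, 4.35%, 1.03% and 1.07% in sh-ctrl against 14.8%, 4.78%, 1.41% and 0.589% in sh-KIF11.

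**Figure D4:**
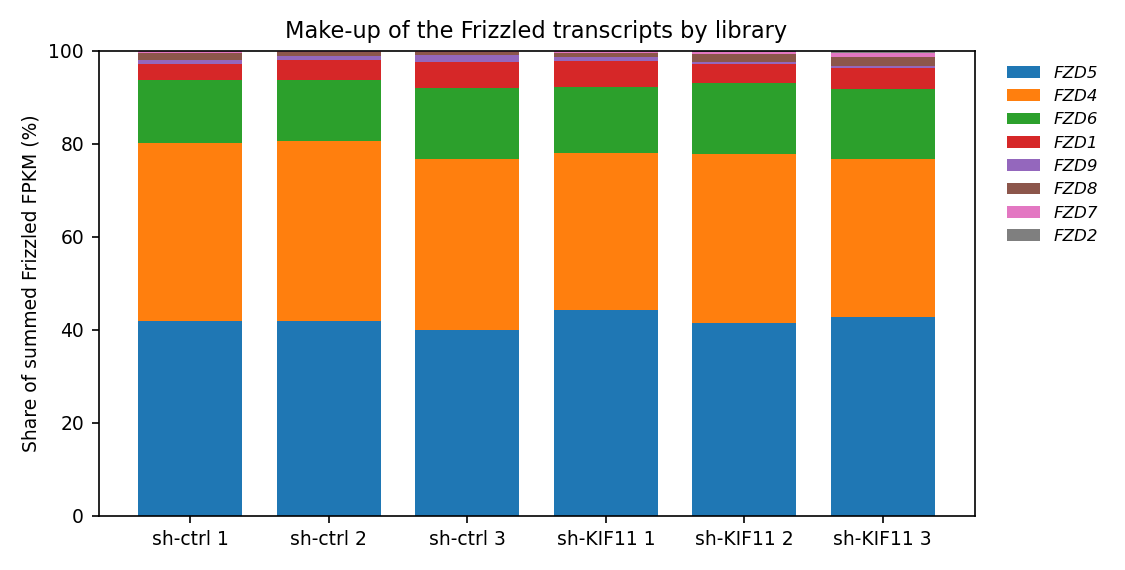
Share of each Frizzled gene in the summed Frizzled FPKM (%, stacked to 100) in each library. FZD5 and FZD4 fill most of every bar, and the FZD4 segment is smaller in the 3 sh-KIF11 libraries (34.7% against 38.0% on average).

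The remaining relatives of the Frizzled genes were FZD3, FZD10 and SMO. FZD3 had 160, 150 and 153 counts across sh-ctrl, against 152, 172 and 152 across sh-KIF11 (log2 fold change -0.16, edgeR adjusted p = 0.252, and 0.073 with library totals), and FZD10 had 0 counts in all 6 libraries. SMO, the Hedgehog signal transducer of this class, was lower by this test (9.23 ± 0.772 to 8.003 ± 0.662 FPKM, SD, n = 3, log2 fold change -0.42). The FPKM of SMO overlapped between groups, and its call was lost in 1 of 16 settings (-0.18 with limma on log2(FPKM + 1) and no filter, limma adjusted p = 0.0937).

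Partners of the receptors changed in both directions. In the lists that follow, genes are called at an adjusted p under 0.05 in the same edgeR quasi-likelihood fit, against 34.4% of all tested genes called higher and 34.7% lower. The log2 fold changes come from that fit and the levels from the authors' FPKM, on which the median of all genes shifted by 0.12 (limma on log2(FPKM + 1)), so a pair of FPKM means can differ more upwards than the fold change beside it. Of 6 tested alternative WNT receptors and co-receptors, 2 were called higher and 3 lower (median log2 fold change -0.14). GPC3, a glypican and hepatoma marker that can bind WNT and Frizzled, was lower (-0.79, 7.79 ± 1.05 to 4.84 ± 0.184 FPKM, SD, n = 3). The pseudokinase PTK7 and the LRP relative LRP4 were lower too (-0.39 and -0.46), each with its call lost in 1 of 16 settings, limma on log2(FPKM + 1) without a filter, and PTK7 overlapped between groups in FPKM. SDC4, a heparan sulphate syndecan, was higher (0.43, 27.9 ± 1.14 to 41.8 ± 3.84 FPKM, SD, n = 3), as was TSPAN12, the tetraspanin partner of FZD4, at a low level (1.17, 0.0980 to 0.247 FPKM), which passed the count filter only through its sh-KIF11 libraries. The TSPAN12 call was lost in DESeq2 and without sh-ctrl library 3 or sh-KIF11 library 1.

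Among the transcripts of genes that control receptor turnover (R-spondins, their receptors and the ubiquitin ligases), 4 were tested and all 4 were called, 2 higher and 2 lower (median 0.033). RNF43 and ZNRF3 are related ligases that remove Frizzled and LRP6 from the surface, and they moved apart. RNF43 rose by 0.21 on the log2 scale (14.0 ± 0.307 to 17.7 ± 1.07 FPKM) and ZNRF3 fell by 0.31 (12.5 ± 0.568 to 11.6 ± 0.539 FPKM, SD, n = 3 each). The ZNRF3 call was lost with library totals and with limma on FPKM, where it lay between -0.096 and -0.074. LGR5, an R-spondin receptor, rose by 0.28 (33.1 ± 0.235 to 43.7 ± 1.10 FPKM, SD, n = 3). LGR4, which has the same role, had -0.15 in this fit and 0.081 with library totals, in opposite directions.

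Of 5 tested genes for receptor folding and WNT secretion, 2 were called, both lower (median -0.25). MESD, the chaperone that LRP5 and LRP6 need to leave the endoplasmic reticulum, fell by 0.53 on the log2 scale (29.7 ± 0.222 to 23.0 ± 0.342 FPKM, SD, n = 3). TMEM59, a membrane protein reported to gather Frizzled receptors, fell by 1.15 (9.02 ± 0.649 to 4.65 ± 0.137 FPKM, SD, n = 3). Both passed in all 16 settings. ATP6AP2, which links LRP6 to the vacuolar proton pump, was the most abundant gene of this list (46.3 ± 3.69 and 51.1 ± 1.68 FPKM, SD, n = 3). It was not called (log2 fold change -0.013, edgeR adjusted p = 0.867).

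Of 19 tested genes that act next to the receptors inside the cell, 6 were called higher and 8 lower (median -0.020). DVL1, a Dishevelled protein that binds the Frizzled tail, fell by 0.59 on the log2 scale (51.6 ± 2.09 to 39.9 ± 0.816 FPKM). AXIN1, the scaffold that LRP tails recruit, fell by 0.66, and CSNK1A1, the kinase that primes beta-catenin, fell by 0.68. CAPRIN2, reported to aid LRP phosphorylation, rose by 1.46 (2.65 ± 0.0699 to 8.18 ± 0.433 FPKM, SD, n = 3). CSNK1G1, of the kinase family that phosphorylates LRP6, rose by 0.86 and APC by 0.65. These 6 genes passed in all 16 settings. CTNNB1 was the most abundant gene of the list (83.2 ± 10.6 and 97.6 ± 0.836 FPKM, SD, n = 3). It was not called (log2 fold change 0.037, edgeR adjusted p = 0.595).

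Among the ligands only 4 of 20 were testable, and of these WNT7B, WNT9A and WNT11 were higher. WNT7B rose by 2.27 on the log2 scale (0.298 ± 0.0683 to 1.61 ± 0.0468 FPKM, SD, n = 3) and passed in all 16 settings. By qPCR the paper reported the opposite direction, with less WNT7B mRNA in HepG2 cells after KIF11 knockdown. WNT3, the most abundant, was lower (-0.35, with the call lost under library totals and limma on FPKM). WNT9A and WNT11 had passed the filter through their sh-KIF11 libraries. Of 7 tested antagonists, 1 was called higher and 3 lower (median -0.15). DKK1, a secreted protein that binds LRP5 and LRP6, was by far the most abundant of them and fell by 0.47 on the log2 scale (906 ± 89.2 to 740 ± 47.9 FPKM, SD, n = 3). NOTUM, which removes the lipid of WNT proteins, fell by 0.47 (111 ± 5.49 to 94.8 ± 4.65 FPKM, SD, n = 3). SFRP5 (-1.13) and SFRP4 (0.53), decoys with a Frizzled-like domain, were called at low levels. The SFRP4 call held in 8 of 16 alternative settings (edgeR, DESeq2 or limma adjusted p up to 0.179) and the SFRP5 call in 9 of 13 (up to 0.0984), and SFRP5 had passed the filter through its sh-ctrl libraries.

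Of 10 tested planar cell polarity partners, 3 were called higher and 2 lower (median -0.034). CELSR2 fell by 1.22 and INVS by 0.35 on the log2 scale, while PRICKLE2 (2.49, 0.0252 to 0.183 FPKM, let through the filter by its sh-KIF11 libraries), CELSR3 (0.57) and DAAM1 (0.45) rose. The INVS call was lost with library totals, where it had -0.12. SCRIB was the most abundant gene of this list (20.2 ± 0.653 and 23.7 ± 0.308 FPKM, SD, n = 3) and was not called. Of 10 tested relatives of LRP5 and LRP6 in the LDL receptor family, 3 were called higher and 6 lower (median -0.43). LRP11 fell by 0.93, LRP3 by 0.63 and LRP8 by 0.61 on the log2 scale. LRP12 rose by 0.94 and VLDLR by 0.47. LRP1, the most abundant (25.9 ± 2.25 and 33.5 ± 1.40 FPKM, SD, n = 3), had 0.15, a call lost without sh-ctrl library 3 (0.077) or sh-KIF11 library 1 (0.12).

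**Figure D5:**
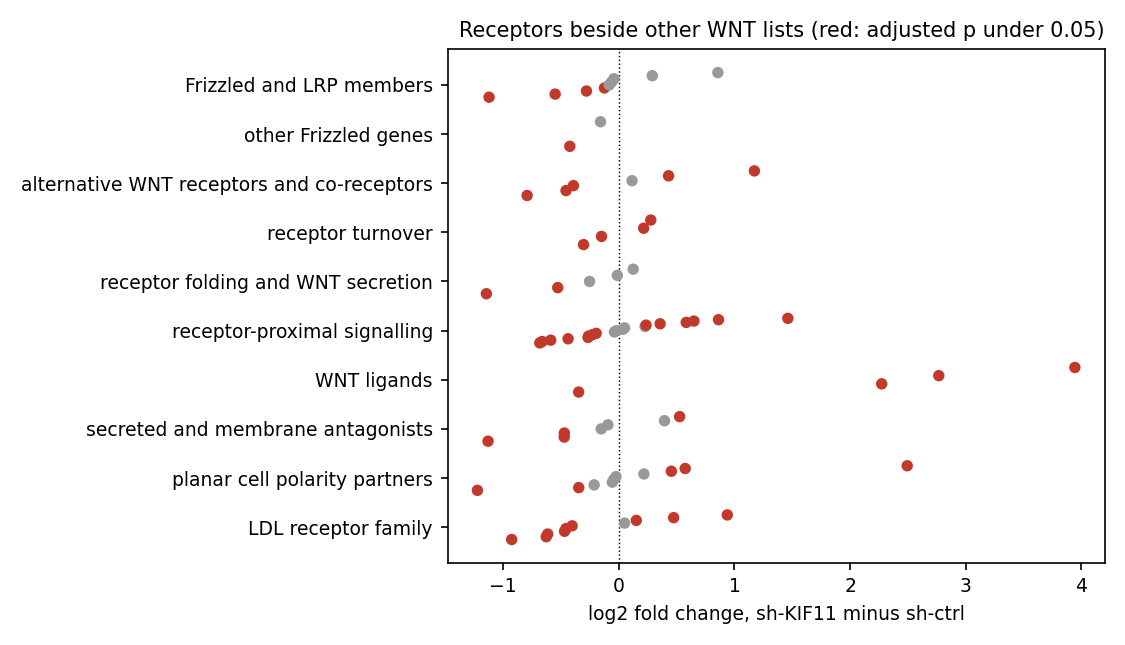
Log2 fold change, sh-KIF11 minus sh-ctrl, of every tested gene of the receptor set and of 9 other WNT and LDL receptor lists, 1 point per gene, red where the adjusted p was under 0.05. Most lists hold genes on both sides of 0, and LRP5 at -0.55 falls within the span of its relatives in the LDL receptor family.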

How the data were processed

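The authors deposited a table of unnormalized read counts and a table of FPKM values, with the same genes and libraries in both. Per the labels and the submitters' processing notes, TruSeq stranded mRNA libraries were processed with bcl2fastq 1.8.4, Trimmomatic, HISAT2 2.1.0, Cufflinks 2.2.1, HTSeq 0.9.1 and DESeq on GRCh38, with no roles stated. The knockdown columns are named only as shRNA and were matched to sh-KIF11 by number.

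Counts were fitted with edgeR 4.0.16 in R 4.3.3 (TMM, filterByExpr, quasi-likelihood test, group as the only term, Benjamini-Hochberg adjustment over the 12369 genes tested, with 7661 left out). TMM factors were 0.922 to 0.926 in sh-ctrl and 1.08 to 1.09 in sh-KIF11, and the biological coefficient of variation was 4.87%. Within-group libraries differed by 2.74 to 8.20 in chi-square per degree of freedom, above sampling noise, so none was merged. Low members were also compared by summed counts with an exact interval. FPKM shares and ratios were compared by exact two-sided permutation over libraries (scipy 1.17.1). Identity, shared runs and shared 150-base windows came from GENCODE release 29. The fit was tested on simulated data.

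All members were named, and of each other list up to 3 called, non-overlapping genes per direction plus the gene of highest FPKM. Members, lists and tests were chosen with earlier results of these data known. Alternatives were RLE, upper-quartile and library-total scaling, no filter, a minimum of 10 counts per library, a replicate block, omission of each library, DESeq2 1.42.0, and limma 3.58.1 on log2(FPKM + 1), with and without a filter at 0.5 FPKM in 3 libraries, and log2(FPKM + 0.1).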

Additional observations from a re-analysis of the deposited data

How the results depend on the processing

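LRP5 passed the test in 16 of 16 settings and kept its direction. Library totals alone gave 6621 genes higher and 2373 lower, and FZD4 -0.049, FZD5 0.11, FZD1 0.17, FZD6 0.19, LRP6 0.15, FZD7 1.08, FZD9 -0.89, FZD3 0.073 and LGR4 0.081 on the log2 scale. Limma called 2568 genes lower with log2(FPKM + 1), 2563 with log2(FPKM + 0.1) and 2489 with log2(FPKM + 1) and no filter. The same 3 settings gave 0.093, 0.15 and 0.093 for FZD1, 0.056, 0.059 and 0.056 for FZD5, 0.071, 0.083 and 0.071 for FZD6, 0.061, 0.068 and 0.061 for LRP6, and 0.020, 0.021 and 0.020 for LGR4. Both filtered FPKM fits called 2 members, as did the minimum of 10 counts in every library, which removes FZD7 and FZD9 and gave FZD5 -0.098. Of all genes, log2(FPKM + 1) called 7669 of 11173, log2(FPKM + 0.1) 7638 of 11173, and the count minimum 8062 of 11605. Without a filter on FPKM, FZD9 had -0.20 and FZD2 0.14, on a scale that understates low genes. Upper-quartile factors gave FZD1 0.018, FZD6 0.037 and FZD5 -0.045, and DESeq2 gave FZD9 -1.15. With TMM-scaled counts in place of FPKM, a setting added after seeing the data, the log2 ratio of the summed Frizzled level moved from 0.0031 to -0.17. The cause of these differences was not tested.

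Leaving out each library in turn gave between 2 and 5 called members. Of all genes, the same omissions called between 7975 of 12481 and 8749 of 12580. The members called were 2 without sh-KIF11 library 3, and 5 without sh-ctrl library 1 or sh-KIF11 library 1, where FZD2 was admitted. FZD2 was also admitted and called without sh-ctrl library 2, where FZD5 lost its call, and without sh-ctrl library 3, where FZD9 did. Each of those omissions gave 4 called members. FZD2 had 1 count in each sh-ctrl library, so it was admitted through its sh-KIF11 libraries. The values ranged from -0.21 to 0.17 for FZD1, -0.16 to -0.095 for FZD5, -0.12 to 0.069 for FZD6, 0.43 to 1.08 for FZD7 and -1.73 to -0.81 for FZD9, and from -0.039 to 1.01 points for the FZD1 share. With 2 libraries in a group, that group's spread is pooled with the other.

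Same-numbered libraries did not deviate together (correlations of 0.0300, -0.0185 and -0.00253). These values cannot tell whether same-numbered libraries were prepared together, and no pairing is stated for them. With the replicate block 8607 genes were called, and LRP5 had -0.55, FZD4 -0.28, FZD5 -0.12 and FZD9 -1.13, with 4 members called as before. FZD2, FZD7, FZD8 and FZD9 had at most 35 counts in any library, which limits what their fold changes can show.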

Other observations

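CSNK1E, a kinase that acts on Dishevelled and LRP6, had 5, 15 and 9 counts across sh-ctrl, against 1, 6 and 0 across sh-KIF11, although its deposited FPKM was 12.1 ± 0.711 and 16.7 ± 0.927 (SD, n = 3 each). CSNK1E was left out of the test for low counts. It was singled out after its values had been seen.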
